A study of Mus musculus with 44 samples.

Results

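The genes described here are 10 members of the apolipoprotein and very low density lipoprotein (VLDL) assembly system: Apoa1, Apoa2, Apoa4, Apoa5, Apob, Apoc2, Apoc3, Apoe, Apom and Mttp. They were chosen by name, with no measured value in the rule but with earlier results of these data known. All 10 were found among the 35249 genes of the count table. The samples were livers of mice of 3 genotypes, wild type (WT), Ripk3 knockout (Ripk3KO) and Mlkl knockout (MlklKO), fed from 2 months of age for 6 months on chow (control) or on a diet without choline, either low in fat (CD-LFD) or high in fat (CD-HFD). Ripk3 and Mlkl encode the kinase and the executioner protein of necroptosis, a lytic form of programmed cell death, and the series was built to ask what their loss changes in liver tumour development. There were 6 control, 6 CD-LFD and 6 CD-HFD libraries of WT mice, 6, 3 and 4 of Ripk3KO mice, and 6, 4 and 3 of MlklKO mice. The labels do not give what else differs between the chow and the choline-deficient diets. They give neither sex, strain background nor whether the deletions are whole-body, nor a littermate relation between genotypes.

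VLDL particles carry triglyceride out of the hepatocyte: microsomal triglyceride transfer protein (Mttp) loads lipid onto apolipoprotein B (Apob) as it enters the endoplasmic reticulum, and phosphatidylcholine, whose main synthesis route uses choline, forms the particle's surface. Exchangeable apolipoproteins then sit on VLDL and on high density lipoprotein (HDL) and set how the particles are lipolysed and taken up. Choline-deficient diets are used in rodents because impaired VLDL export loads the liver with fat.

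Promoter letters are shown for the 3 genes that stand for the main patterns below: Apoa4, which was higher on both choline-deficient diets, Apob, the particle's structural protein, and Apoa2, which was lower on CD-HFD than on CD-LFD. Each run is the 250 bases before the RefSeq transcript start on the plus strand of GRCm38.p6, read 5′ to 3′; for Apoa2 the table holds 2 starts, and the run at the downstream start is shown. Capitals mark CAAAG on either strand (CTTTG on the printed strand, the core read by hepatocyte nuclear factor 4, HNF4), its longer form CAAAGTTCA, and TATAAA.
Apoa4, chr9:46240594-46240843: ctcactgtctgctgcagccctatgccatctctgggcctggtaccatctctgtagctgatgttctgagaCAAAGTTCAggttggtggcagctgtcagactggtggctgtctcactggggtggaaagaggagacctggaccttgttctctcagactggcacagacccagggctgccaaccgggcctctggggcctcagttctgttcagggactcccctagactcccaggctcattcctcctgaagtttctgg
Apob, chr12:7977427-7977676: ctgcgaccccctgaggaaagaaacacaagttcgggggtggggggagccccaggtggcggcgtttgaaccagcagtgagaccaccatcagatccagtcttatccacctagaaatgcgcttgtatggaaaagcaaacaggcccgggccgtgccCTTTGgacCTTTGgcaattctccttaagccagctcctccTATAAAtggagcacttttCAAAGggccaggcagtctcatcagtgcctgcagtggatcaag
Apoa2, chr1:171224804-171225053: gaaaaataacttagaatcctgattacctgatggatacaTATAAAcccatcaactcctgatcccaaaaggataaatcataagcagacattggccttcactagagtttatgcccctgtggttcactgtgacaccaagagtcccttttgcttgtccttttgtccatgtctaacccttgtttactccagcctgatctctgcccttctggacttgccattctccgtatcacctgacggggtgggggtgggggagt
The Apoa4 run holds CAAAGTTCA at position -182, counted back from the start; this 9-letter match contains CAAAG. The Apob run holds CAAAG at -42 on the printed strand and at -91 and -99 on the other, with TATAAA at -60, and the Apoa2 run holds TATAAA at -212. RefSeq's table had 13 windows (each from 250 bases before to 50 after a start) for 9 of the 10 members. CAAAG was present on either strand in 9 of these 13 windows, from 6 genes, and in 53.9% of all 32851 windows of that length. CAAAGTTCA was present in 0.39% of all windows, and among members in the Apoa4 window alone. TATAAA was present in 5 of the 13 windows and in 13.6% of all windows, and AGGTCA, the nuclear receptor half-site, in windows of Apoa2 (at its other start) and Apoc2 and in 16.3% of all. CAAAGTCCA was found in none of the 13 windows and in 0.475% of all. These letters were searched after the sequences had been seen, and a match is a description of the window only.

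Total counts were 2476268 to 12471844 in 43 libraries and 88204703 in WT CD-LFD replicate 3. Levels are CPM, counts relative to the library's total, scaled by edgeR's trimmed mean of M-values (TMM), and calls are edgeR quasi-likelihood tests with Benjamini-Hochberg adjusted p at most 0.05 over 14862 tested genes. All p-values measure the spread between these libraries, since the labels do not say how the mice of a group were housed or processed. Ripk3, Mlkl and cell type markers are given as CPM of all counts without TMM. Ripk3 was at 0.439 to 4.78 CPM in WT control livers and at 0 to 1.01 in the Ripk3KO control livers. These ranges overlap, with up to 9 counts in Ripk3KO controls and as few as 3 in WT controls. Ripk3 thus does not check every Ripk3KO control label. Mlkl was at 2.02 to 5.5 CPM in WT controls and at 1.24 to 2.61 in MlklKO controls, which overlap, so that it does not check every MlklKO control label. It was at 17.2 to 22.6 CPM in WT CD-HFD livers and at 3.55 to 14.4 in the MlklKO CD-HFD livers, the highest being replicate 1 with 72 counts, and the labels do not give which exons the deletion removes. Hepatocyte markers summed to 73410 to 126602 CPM in every library, and in WT CD-HFD against control 7 of the 9 tested fell and 2 rose (median log2 change -0.86). Markers of other cells moved with diet: in WT, summed macrophage markers were 188 to 274 CPM on control and 1437 to 3772 on CD-HFD (8 of 10 called higher, 1 lower), stellate and fibroblast markers 167 to 215 and 877 to 1831 (6 of 7 higher), and cholangiocyte markers 38.3 to 73.5 and 827 to 1436 (5 of 5 higher). Endothelial markers were at 129 to 170 and 79.5 to 146 CPM (5 of 5 lower), and lymphocyte markers at 1.92 to 9.57 and 11.9 to 27.9 (3 of 6 higher). In bulk tissue, fewer hepatocytes and less RNA per hepatocyte cannot be told apart, which touches every lower value on the diets below.

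Per kilobase of exon (lengths from GENCODE M21), 3 genes stood well above the others in WT control liver. Apoa2 at 15783 ± 7141 CPM per kb (SD, n = 6), Apoe at 15575 ± 3151 and Apoa1 at 14923 ± 5408 did not differ beyond their spread. Apoc3 followed at 2796, then Apoa5 at 340, Apob at 289, Apom at 133, Mttp at 46.7 and Apoa4 at 26.1 CPM per kb. In WT CD-HFD liver Apoa4 stood at 234 CPM per kb, between Apoa5 at 322 and Apob at 166, while Mttp was at 15.5. The 10 genes together took 4.52 to 6.10% of all counts as group means, and Apoe alone 2.16 to 3.27%.

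**Figure D1:**
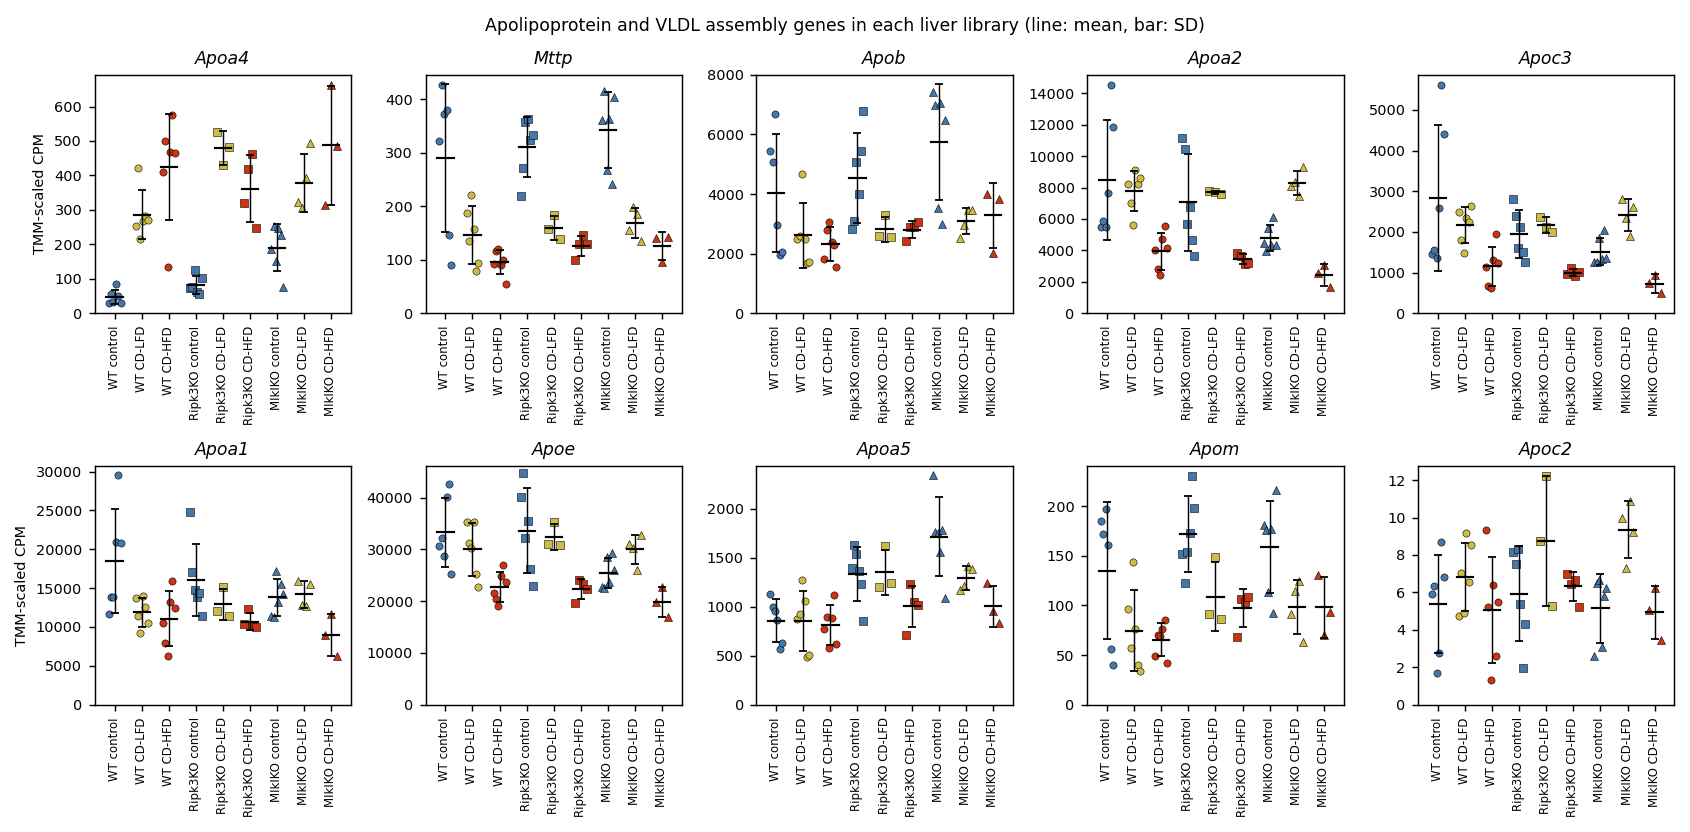
CPM (TMM-scaled, linear axes) of each of the 10 genes in all 44 livers, by genotype and diet; each point is 1 library, each long line the group mean and each error bar the SD. Apoa4 on both choline-deficient diets lies above the controls of its own genotype, and Mttp lies below them in both knockouts.

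On CD-HFD the WT liver had lower transcript levels of 7 of the 10 genes, among them Mttp, Apob and the abundant HDL apolipoproteins Apoa1 and Apoa2, and a higher level of 1, Apoa4. Apoa5, an activator of triglyceride lipolysis, and Apoc2, the cofactor of lipoprotein lipase, did not pass the test. The median log2 change over the 10 was -0.77, beside -0.07 over all tested genes, and 47.7% of all tested genes were called in this comparison. In Ripk3KO mice CD-HFD gave 1 gene called higher and 6 lower (median -0.64, with 46.3% of all genes called), and in MlklKO mice 1 higher and 4 lower (median -0.73, with 45.2% of all genes called). On CD-LFD against control, 1 rose and 3 fell in WT (27.7% of all genes called), 1 rose and 1 fell in Ripk3KO (24.1%), and 2 rose and 2 fell in MlklKO (37.9%). CD-HFD against CD-LFD gave none higher and 2 lower in WT (21.1% of all genes), none higher and 2 lower in Ripk3KO (8.83%), and none higher and 3 lower in MlklKO (23.7%). Within a genotype these comparisons share their libraries, so their counts are not independent of each other. Without TMM, scaling to library size alone, the median log2 change over all genes moved from -0.07 to 0.43 for WT CD-HFD against control, and 1 member was then called higher and 3 lower (Apoa2, Apoc3 and Mttp); Apoa1, Apob, Apoe and Apom were not called. In Ripk3KO, where Apoa1, Apoa2, Apoc3, Apoe and Apom were likewise not called, Mttp was the member called lower. A change given here is thus one against most other genes. Under that scaling 52.7% of all genes were called in WT CD-HFD against control, 6813 higher and 1020 lower. In WT CD-LFD against control 1 member was called higher and 1 lower (32.8% of all genes called). Ripk3KO and MlklKO CD-HFD against control each gave 1 and 1 (51.2% and 47.7%). Ripk3KO CD-LFD against control gave 1 and 0 (29.8%), and MlklKO CD-LFD against control 5 and 2 (38.0%). WT CD-HFD against CD-LFD gave 1 and 2 (23.9%).

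**Figure D2:**
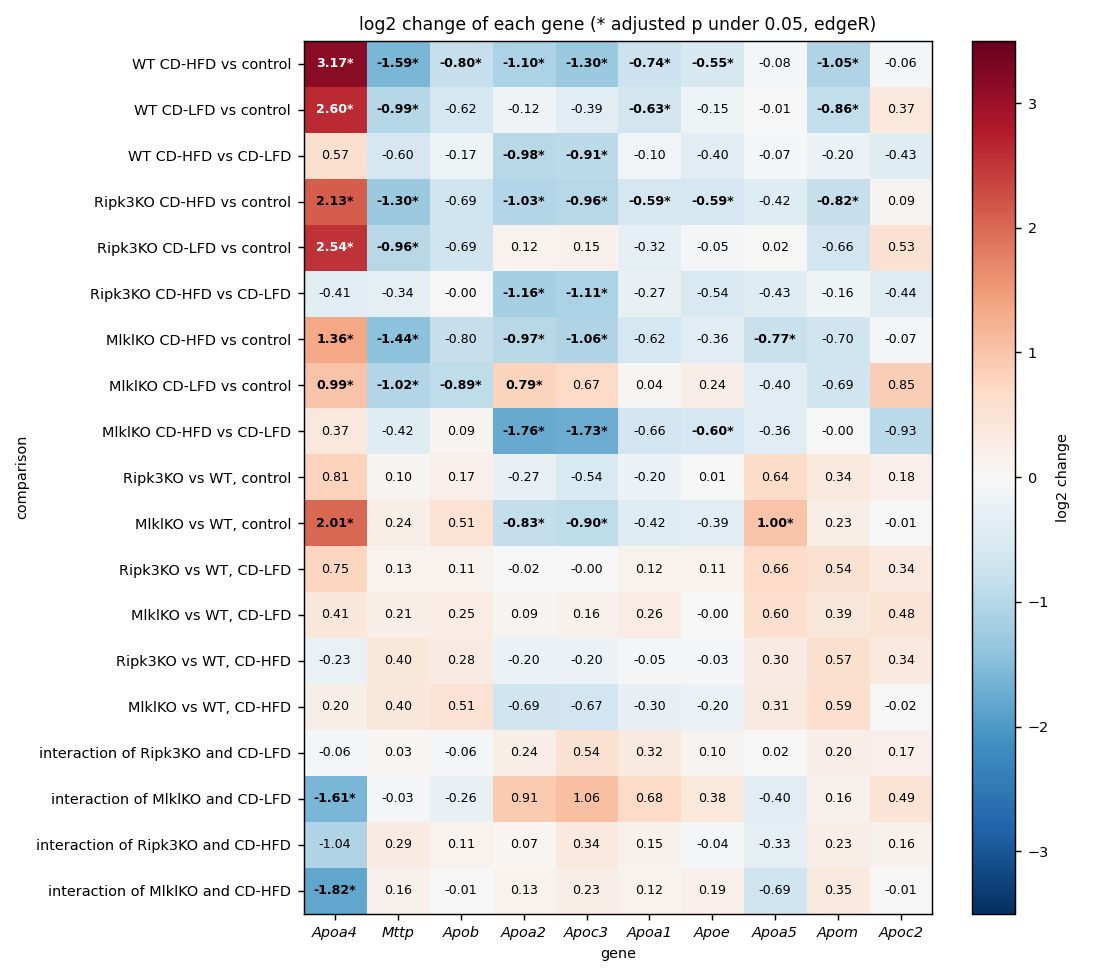
Log2 change of each of the 10 genes (columns) in each comparison (rows), with red for higher, blue for lower and an asterisk on changes with an adjusted p under 0.05 (edgeR). The Apoa4 column is red for every choline-deficient diet against control (0.99 to 3.17) and the Mttp column blue (-1.59 to -0.96).

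Mttp (ENSMUSG00000028158), the lipid loader of nascent VLDL, was lower on both diets in all 3 genotypes. In WT controls it was 90.7 CPM at the lowest, 347 at the median and 427 at the highest, in CD-LFD 78.6, 147 and 222, and in CD-HFD 55.7, 96.1 and 120. WT controls were not of a piece: replicates 5 and 6, at 147 and 90.7 CPM, lay among the diet libraries, and the other 4 (322 to 427) lay above them all. Mttp fell by 1.59 ± 0.26 on the log2 scale (SE) on CD-HFD (adjusted p = 1.75e-06, edgeR's quasi-likelihood test) and by 0.99 ± 0.25 on CD-LFD (adjusted p = 0.0028). Without both of those controls, a setting chosen after seeing the data, the changes were -1.97 and -1.36. Of all 44 libraries, WT control 5 had the fewest counts (2476268) and the lowest transcript length index (-0.57, a measure given further on). In Ripk3KO, controls spanned 219 to 363 CPM with a median of 328, the 3 CD-LFD livers were at 157, 184 and 139, and the 4 CD-HFD livers at 100, 129, 147 and 129. In MlklKO, controls spanned 241 to 416 with a median of 362, the 4 CD-LFD livers were at 156, 198, 186 and 136, and the 3 CD-HFD livers at 141, 95.9 and 142. Every knockout liver on either diet lay below every control of its genotype. The CD-HFD changes were -1.30 ± 0.29 in Ripk3KO (adjusted p = 0.000293) and -1.44 ± 0.33 in MlklKO (adjusted p = 0.000374), and the CD-LFD changes -0.96 ± 0.32 (adjusted p = 0.0241) and -1.02 ± 0.29 (adjusted p = 0.00538). The CD-LFD calls were less stable than those on CD-HFD. In Ripk3KO the call was lost without CD-LFD replicate 1 (adjusted p = 0.0783) or replicate 3 (adjusted p = 0.13), under library-size scaling (adjusted p = 0.0736) and with the length index described further on as a covariate (adjusted p = 0.105). In WT it was lost in a fit of the compared groups alone (adjusted p = 0.0751), and in MlklKO with the length index (log2 change -0.43, adjusted p = 0.271). The difference between CD-HFD and CD-LFD was not called in any genotype; in WT the log2 difference was -0.60 (adjusted p = 0.0809). Mttp shares 7.36% of its exon bases with Trmt10a on the opposite strand, and the strand setting of the counting is not given.

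Apob (ENSMUSG00000020609) encodes the single structural protein of each VLDL particle. WT controls were at 1947 CPM at the lowest, 4019 at the median and 6681 at the highest, CD-LFD at 1705, 2489 and 4682, and CD-HFD at 1549, 2342 and 3064. The groups overlapped, with WT controls 5 and 6 again at diet levels (1947 and 2049). Apob fell by 0.80 ± 0.27 on CD-HFD in WT (adjusted p = 0.0151), and the call was lost without WT control replicate 3 (adjusted p = 0.0756). Its WT CD-LFD change was -0.62 (adjusted p = 0.0829); without WT controls 5 and 6 it was -0.95 (adjusted p = 0.00438). In MlklKO it fell by 0.89 ± 0.31 on CD-LFD (adjusted p = 0.0234), where controls spanned 2988 to 7429 CPM with a median of 6734 and the 4 CD-LFD livers were at 2539, 2960, 3463 and 3451. With the length index as a covariate this change was 0.10 (adjusted p = 0.772). The remaining changes against control were of like size without passing the test: -0.80 for MlklKO CD-HFD (adjusted p = 0.0547), -0.69 for Ripk3KO CD-HFD (adjusted p = 0.0649) and -0.69 for Ripk3KO CD-LFD (adjusted p = 0.138). Per 100 Apob counts there were 7.45 ± 3.0 Mttp counts in WT controls, 5.64 ± 1.10 on CD-LFD and 4.16 ± 0.52 on CD-HFD (SD, n = 6 each). The ratio stood in the same order in Ripk3KO (7.26, 5.70 and 4.48) and in MlklKO (6.31, 5.54 and 3.98), as a description without a test.

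Apoa4 (ENSMUSG00000032080), an intestinal and hepatic apolipoprotein that in mouse liver is known to rise with hepatic triglyceride, was the sole member higher on both diets in all 3 genotypes. In WT, controls were at 30.4 CPM at the lowest, 41.7 at the median and 84.2 at the highest, CD-LFD livers at 217, 270 and 422, and CD-HFD livers at 133, 467 and 576. No WT control reached any WT diet library, and replicate 3 of CD-HFD, at 133 CPM, lay below all 6 CD-LFD livers. The log2 change was 2.60 ± 0.29 on CD-LFD (adjusted p = 1e-08, edgeR's quasi-likelihood test) and 3.17 ± 0.30 on CD-HFD (adjusted p = 1.83e-11). The difference between CD-HFD and CD-LFD was not called in WT (log2 difference 0.57, adjusted p = 0.136). Ripk3KO controls spanned 56.3 to 127 CPM with a median of 74.2, the CD-LFD livers were at 527, 429 and 482, and the CD-HFD livers at 320, 419, 461 and 247. Again no control overlapped a diet library, and all 3 CD-LFD livers lay above every WT CD-LFD liver, a difference that was not called. Ripk3KO changes were 2.54 ± 0.32 on CD-LFD (adjusted p = 2.11e-07) and 2.13 ± 0.31 on CD-HFD (adjusted p = 2.55e-07).

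MlklKO mice had more Apoa4 on the control diet already. The 6 MlklKO controls spanned 76.2 to 252 CPM with a median of 206; replicate 6, at 76.2, fell within the WT range and the other 5, at 151 or more, lay above it. The log2 difference from WT controls was 2.01 ± 0.29 (adjusted p = 2.41e-06), in a comparison in which 27.1% of all genes were called. MlklKO CD-LFD livers were at 323, 306, 392 and 493 CPM and CD-HFD livers at 315, 661 and 486, overlapping WT livers on the same diets. The change on diet was 0.99 ± 0.30 on CD-LFD (adjusted p = 0.00917; 0.75 and 0.13 with the length index as a covariate) and 1.36 ± 0.32 on CD-HFD (adjusted p = 0.000635). The interaction, the MlklKO change minus the WT change, was -1.61 ± 0.42 for CD-LFD (adjusted p = 0.0134) and -1.82 ± 0.45 for CD-HFD (adjusted p = 0.016). Apoa4 was the sole member called in either interaction, in which 8.45% and 4.12% of all genes were called. The CD-LFD interaction kept its call without each of the 22 libraries in turn, and the CD-HFD interaction in 19 of 21 such fits, being lost without MlklKO CD-HFD replicate 1 (adjusted p = 0.0585) or replicate 4 (adjusted p = 0.0544). Ripk3KO controls had a log2 difference from WT of 0.81 in Apoa4 (adjusted p = 0.0902); 4.47% of all genes and none of the 10 were called there, where DESeq2 called 1. At an unadjusted p of 0.05, 2 of the 10 passed (Apoa4 and Apoa5), beside 20% of all genes. The Ripk3KO interactions gave -0.06 for CD-LFD and -1.04 for CD-HFD (adjusted p = 0.298), and again no member was called, by edgeR or by DESeq2, with 0.0269% and 0.478% of all genes called; at an unadjusted p of 0.05, 0 and 1 members passed, beside 8.28% and 10.9% of all genes.

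Apoa4 values bear on a few other readings of the libraries. Of 8 intestinal epithelium markers 6 were found, and their sum was 48.8 to 134 CPM in WT controls and 106 to 200 on CD-HFD; Fabp2 made up 18.9 to 118 CPM of it over all libraries, Sis had at most 2 counts and Muc2 at most 1.38 CPM in any library. Of the 4 markers tested, Vil1, also expressed by bile duct cells, rose on both diets in every genotype, by a log2 change of 4.11 on CD-HFD in WT (from at most 0.519 CPM in controls to 3.43 to 11.0). Tff3 fell, with a log2 change of -4.06 on CD-LFD and -1.79 on CD-HFD in WT. In MlklKO, Lgals4 rose on CD-LFD and CD-HFD (log2 changes of 2.30 and 1.59) and Fabp2 on CD-LFD (1.29). Between MlklKO and WT controls, where Apoa4 was higher, Fabp2 had a log2 difference of -0.62 (adjusted p = 0.0784), Lgals4 of -0.71 (adjusted p = 0.32), Vil1 of 0.50 (adjusted p = 0.658) and Tff3 of -0.05 (adjusted p = 0.933). The part of these cells in the Apoa4 changes on diet was not tested. Libraries also differed in the log2 ratio of the opposite-phase clock genes Arntl and Dbp. The ratio had no single clear break, and it was divided at the widest gap that left at least 5 libraries on each side: 11 were high, namely 4 WT controls, all 6 WT CD-LFD and 1 WT CD-HFD, and none was a knockout. The WT CD-HFD library among them was replicate 3, the one with Apoa4 at 133 CPM. With that class as a covariate, the Apoa4 difference between MlklKO and WT controls was 1.21 (adjusted p = 0.00744), and the MlklKO interaction was -2.11 for CD-LFD (adjusted p = 0.00066) and -1.12 for CD-HFD (adjusted p = 0.12). Since high-ratio libraries are all WT, clock phase and genotype cannot be fully told apart. Antisense genes cover part of Apoa4 (Gm47528 shares 34.9% of its exon bases, with 0 to 86 counts per library).

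Apoa2 and Apoc3 were the members lower on CD-HFD than on CD-LFD in all 3 genotypes. Apoa2 (ENSMUSG00000005681) encodes the second protein of HDL. WT controls were at 5489 CPM at the lowest, 6736 at the median and 14546 at the highest, CD-LFD at 5606, 8212 and 9110, and CD-HFD at 2415, 4082 and 5550. Every WT CD-HFD liver lay below every CD-LFD liver, with controls overlapping both. Apoa2 was 0.98 ± 0.24 lower on the log2 scale on CD-HFD than on CD-LFD in WT (log2 difference -0.98, adjusted p = 0.002). In Ripk3KO the CD-LFD livers were at 7789, 7689 and 7587 CPM and the CD-HFD livers at 3813, 3653, 3152 and 3170 (log2 difference -1.16 ± 0.31, adjusted p = 0.0131; 0.0502 without CD-LFD replicate 2). In MlklKO they were at 8077, 8322, 7462 and 9278, and at 2574, 3065 and 1700 (log2 difference -1.76 ± 0.33, adjusted p = 0.000123). The 2 diets did not overlap in any of the 3 genotypes. Against control, Apoa2 fell on CD-HFD by 1.10 ± 0.24 in WT (adjusted p = 0.000188), by 1.03 in Ripk3KO (adjusted p = 0.00184) and by 0.97 in MlklKO (adjusted p = 0.00787). The MlklKO call was lost without CD-HFD replicate 4 (adjusted p = 0.0708) and under library-size scaling (log2 change -0.44, adjusted p = 0.223).

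Apoc3 (ENSMUSG00000032081), an inhibitor of lipoprotein lipase and of remnant uptake, followed Apoa2 closely. In WT, controls were at 1372 CPM at the lowest, 2080 at the median and 5614 at the highest, CD-LFD at 1472, 2296 and 2645, and CD-HFD at 615, 1187 and 1938. The WT groups overlapped, and controls 5 and 6, at 5614 and 4414 CPM, lay far above the other 4, of which the highest was 2595. Apoc3 fell by 1.30 ± 0.28 on CD-HFD against control (adjusted p = 0.000152) and was lower than on CD-LFD (log2 difference -0.91 ± 0.27, adjusted p = 0.0131). Without controls 5 and 6 the change against control was -0.60 (adjusted p = 0.0345), and that of Apoa2 -0.63 (adjusted p = 0.0169). In Ripk3KO the CD-LFD livers were at 2376, 2120 and 1992 CPM and the CD-HFD livers at 962, 1114, 917 and 1016 (log2 difference -1.11 ± 0.36, adjusted p = 0.041); this call was lost in each of the 7 fits without a library. In MlklKO they were at 2816, 2352, 1907 and 2615, and at 746, 951 and 488 (log2 difference -1.73 ± 0.38, adjusted p = 0.000759). No CD-HFD liver of either knockout reached a CD-LFD liver. With the length index as a covariate the MlklKO differences were called but smaller, -0.83 for Apoc3 and -0.99 for Apoa2. Apoc3 also fell on CD-HFD against control in Ripk3KO (log2 change -0.96, adjusted p = 0.0108) and in MlklKO (log2 change -1.06, adjusted p = 0.0118), the latter lost without CD-HFD replicate 4 (adjusted p = 0.0894) and under library-size scaling (log2 change -0.54, adjusted p = 0.202). With the clock class as a covariate, the WT difference between the diets was -0.97 for Apoa2 (adjusted p = 0.0742) and -0.86 for Apoc3 (adjusted p = 0.207); the knockouts hold no high-ratio library.

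MlklKO controls were called lower than WT controls in both genes, but not in every fit. Apoa2 spanned 3964 to 6115 CPM with a median of 4422, and Apoc3 1260 to 2051 with a median of 1348, overlapping the WT controls. The log2 differences from WT were -0.83 ± 0.24 for Apoa2 (adjusted p = 0.00844) and -0.90 ± 0.27 for Apoc3 (adjusted p = 0.0125). Both calls were lost without WT control replicate 5 (adjusted p = 0.0542 and 0.0974), and without replicates 5 and 6 the differences were -0.36 and -0.20. From this level Apoa2 rose on CD-LFD in MlklKO by a log2 change of 0.79 ± 0.26 (adjusted p = 0.0153), while Apoc3 had a change of 0.67 (adjusted p = 0.0711). With the length index as a covariate the Apoa2 change was -0.023 (adjusted p = 0.941).

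Apoa1 (ENSMUSG00000032083), the main structural protein of HDL, was lower on both diets in WT. WT controls were at 11725 CPM at the lowest, 17335 at the median and 29566 at the highest, CD-LFD at 9190, 11948 and 13947, and CD-HFD at 6304, 11504 and 15974. The groups overlapped, and control replicate 5 held the highest value. Apoa1 fell by 0.63 on CD-LFD (adjusted p = 0.0214) and by 0.74 ± 0.21 on CD-HFD (adjusted p = 0.00367); without controls 5 and 6 these were -0.34 (adjusted p = 0.193) and -0.45 (adjusted p = 0.0717). In Ripk3KO it fell by 0.59 on CD-HFD (adjusted p = 0.0398, kept in 5 of 10 fits without a library), and the MlklKO CD-HFD change was -0.62 (adjusted p = 0.0531). The difference in Apoa1 between the 2 choline-deficient diets was not called in WT (log2 difference -0.10, adjusted p = 0.789). In MlklKO every CD-HFD liver (8978, 11707 and 6289 CPM) lay below every CD-LFD liver (15886, 12789, 12646 and 15558), with a log2 difference of -0.66 (adjusted p = 0.0822). That difference was called in the compared groups alone (adjusted p = 0.032) and without MlklKO CD-HFD replicate 2 (-0.95, adjusted p = 0.0347).

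The transcripts of the HDL apolipoproteins can also be set against each other within each liver. Per 100 Apoa1 counts, WT livers held 45.2 ± 7.32 Apoa2 counts on control, 65.9 ± 8.23 on CD-LFD and 36.1 ± 1.96 on CD-HFD (SD, n = 6 each). The CD-LFD range, 59.8 to 82.1, did not meet the CD-HFD range, 33.2 to 38.3. Group means were in the same order in Ripk3KO (42.8, 60.5 and 32.4) and in MlklKO (34.9, 58.6 and 27.3). Apoc3 per 100 Apoa2 counts stayed between 27.7 and 31.6 over the 9 group means. Apoa4 per 100 Apoa1 counts went from 0.27 ± 0.11 in WT controls to 2.45 ± 0.68 on CD-LFD and 3.87 ± 1.38 on CD-HFD. Its group means on control, CD-LFD and CD-HFD were 0.553, 3.8 and 3.38 in Ripk3KO, and 1.44, 2.67 and 5.63 in MlklKO. These ratios carry no test and do not tell which of the 2 transcripts changed.

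**Figure D3:**
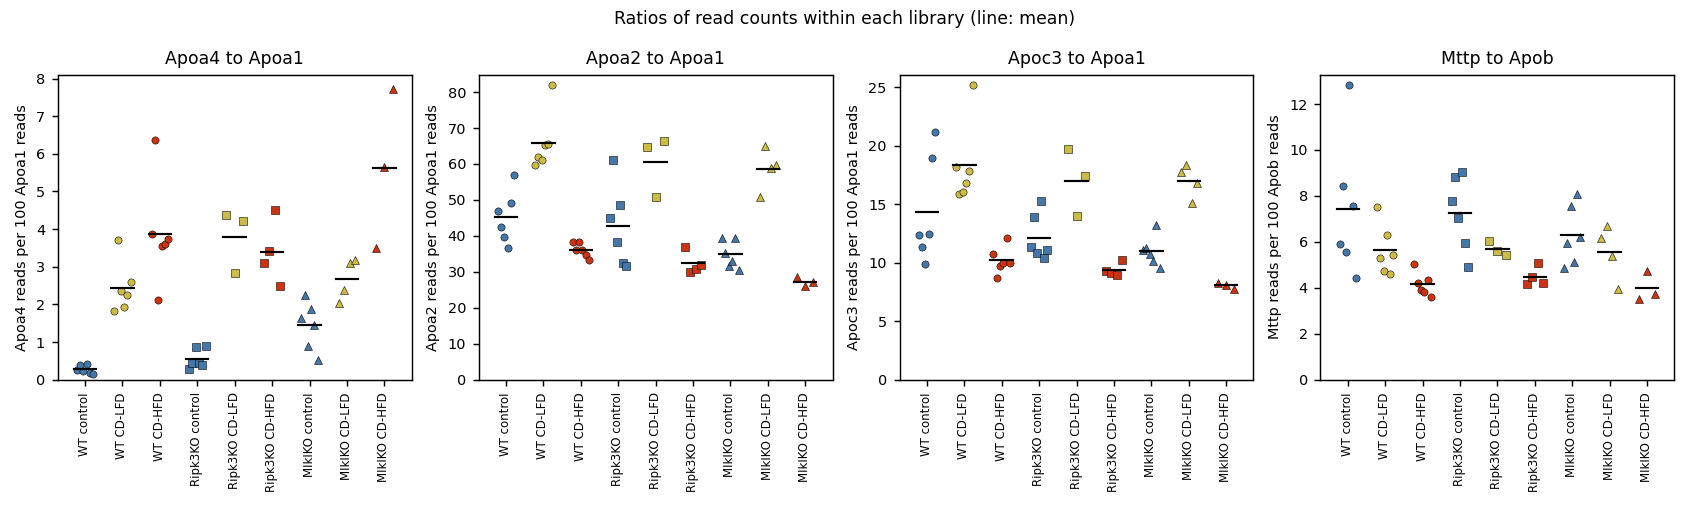
Read counts of Apoa4, Apoa2 and Apoc3 per 100 of Apoa1, and of Mttp per 100 of Apob, in each liver, by genotype and diet; each point is 1 library and lines are group means. Apoa2 per 100 Apoa1 counts had its highest group mean on CD-LFD and its lowest on CD-HFD in each genotype (65.9 and 36.1 in WT).

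Apoe (ENSMUSG00000002985), the ligand by which remnants bind their hepatic receptors and the most counted of the 10, was lower on CD-HFD. In WT, controls were at 25265 CPM at the lowest, 31491 at the median and 42591 at the highest, CD-LFD at 22807, 30776 and 35296, and CD-HFD at 19164, 22625 and 26983. Groups overlapped in WT, while in both knockouts every CD-HFD liver lay below every CD-LFD liver. Apoe fell by 0.55 ± 0.16 on CD-HFD in WT (adjusted p = 0.00429) and by 0.59 ± 0.18 in Ripk3KO (adjusted p = 0.00695); in MlklKO the log2 change was -0.36 (adjusted p = 0.135). Under library-size scaling both calls were lost, with changes of -0.05 in WT (adjusted p = 0.783) and -0.06 in Ripk3KO (adjusted p = 0.782). As a share of all counts Apoe was 2.95% in WT controls and 2.84% on CD-HFD, and 2.73% and 2.62% in Ripk3KO. Its CD-HFD against CD-LFD difference was called in MlklKO (log2 difference -0.60 ± 0.21, adjusted p = 0.0363, kept in 2 of 7 fits without a library) and not in WT (-0.40, adjusted p = 0.0683) or Ripk3KO (-0.54, adjusted p = 0.104). Apoe is also made by macrophages, whose markers were called higher on CD-HFD against control for 8 of 10 in WT (1 was lower), 8 of 10 in Ripk3KO (summed 68.0 to 411 CPM on control and 1929 to 2714 on CD-HFD) and 9 of 10 in MlklKO (111 to 272 and 2145 to 3550); their part in the Apoe level was not tested.

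Apom (ENSMUSG00000024391), the HDL carrier of sphingosine-1-phosphate, varied with Mttp. WT controls were at 40.1 CPM at the lowest, 166 at the median and 197 at the highest, CD-LFD at 34.2, 66.6 and 144, and CD-HFD at 42.2, 69.8 and 85.2. Controls 5 and 6, at 55.7 and 40.1 CPM, lay at diet levels and the other 4, at 161 or more, above them. Apom fell by 1.05 ± 0.31 on CD-HFD (adjusted p = 0.00428) and by 0.86 ± 0.31 on CD-LFD (adjusted p = 0.0319, kept in 5 of 12 fits without a library). In Ripk3KO it fell by 0.82 on CD-HFD (adjusted p = 0.048, kept in 2 of 10 such fits), where the 4 livers were at 68.6, 107, 104 and 109 CPM against 123 to 231 in controls. In MlklKO the changes were -0.69 on CD-LFD (adjusted p = 0.105) and -0.70 on CD-HFD (adjusted p = 0.134).

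Apoa5 (ENSMUSG00000032079) had no called diet change in WT or Ripk3KO and a genotype difference on the control diet. WT controls spanned 571 to 1129 CPM with a median of 912, Ripk3KO controls 856 to 1634 with a median of 1380, and MlklKO controls 1091 to 2345 with a median of 1757. All but the lowest MlklKO control, replicate 6 at 1091 CPM, lay above every WT control. The log2 difference between MlklKO and WT was 0.998 ± 0.21 (adjusted p = 0.000452), and it was called in each alternative fit; that between Ripk3KO and WT was 0.64 (adjusted p = 0.0679). On CD-HFD the highest of the 3 MlklKO livers was at 1237 CPM and the median at 951, within or below the control range. The log2 change was -0.77 ± 0.26 (adjusted p = 0.0153). This call was lost without CD-HFD replicate 4 (adjusted p = 0.0761) and under library-size scaling. The Apoa5 interaction of MlklKO and CD-HFD was -0.69 (adjusted p = 0.252). Apoa1, Apoa4, Apoa5 and Apoc3 lie together on chromosome 9, and in WT CD-HFD livers Apoa4 rose, Apoa1 and Apoc3 fell, and Apoa5 had a log2 change of -0.08 (adjusted p = 0.774).

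Apoc2 (ENSMUSG00000002992) was listed at group means of 4.93 to 9.36 CPM, from 9 to 426 counts per library. In GENCODE M21, 79.5% of its exon bases are shared on the same strand with the model Gm44805, which had at most 1 count, and the handling of reads that fit both is not given in the sources used here, so the value is not a level of the transcript. In the fit of all libraries with TMM it was not called in any comparison, the nearest being MlklKO CD-LFD against control (log2 change 0.85, adjusted p = 0.0595), which was called under library-size scaling (adjusted p = 0.0362) and in the compared groups alone (adjusted p = 0.0168). MlklKO CD-HFD against CD-LFD was also called in the compared groups alone (log2 difference -0.95, adjusted p = 0.0145).

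On the choline-deficient diets, the knockouts were not told apart from WT in any of the 10 genes. On CD-LFD, edgeR and DESeq2 called none of the 10 in either knockout, beside 1.1% of all genes called by edgeR in Ripk3KO and 2.56% in MlklKO. The nearest was Apoa5, with log2 differences of 0.66 in Ripk3KO (adjusted p = 0.235) and 0.60 in MlklKO (adjusted p = 0.168); at an unadjusted p of 0.05, 2 members passed in Ripk3KO (Apoa4 and Apoa5, beside 11.4% of all genes) and 1 in MlklKO (Apoa5, beside 15.6%). On CD-HFD neither tool called any of the 10, beside 0.377% of all genes called by edgeR in Ripk3KO and 0% in MlklKO, and 0 and 1 members (Apoa2) passed unadjusted, beside 8.73% and 8.38% of all genes. With 3 or 4 knockout mice per diet, these tests do not show that levels were alike: the MlklKO CD-HFD difference from WT was 0.51 ± 0.33 for Apob and 0.59 ± 0.36 for Apom. Ordered by mean level over the 9 groups, neighbouring groups overlapped for every gene with 1 exception, Apoa2 in Ripk3KO CD-HFD (3447 ± 337 CPM, n = 4) and MlklKO CD-HFD (2447 ± 691, n = 3).

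Part of the 10 genes varied together, Apoa1, Apoa2, Apoc3 and Apoe on one side and Apob, Mttp and Apom on the other. More weakly, Apoc2 went with the first side (0.45 with Apoa2, 0.50 within groups) and Apoa5 with the other (0.66 with Apom, 0.55 within groups). Over the 44 libraries the Pearson correlation of log2 CPM was 0.97 for Apoa2 with Apoc3 and 0.84 for Apoa1 with Apoc3, and after removing group means 0.93 and 0.89. Apom with Mttp gave 0.89 (0.90 within groups), Apob with Apom 0.87 (0.82) and Apob with Mttp 0.85 (0.79). Between the sides, Apoa2 with Apob gave -0.28 over all libraries and -0.80 within groups, Apoa1 with Mttp 0.22 and -0.52, and Apoa2 with Mttp 0.07 and -0.65. These pairs opposed each other within groups and not all of them over all libraries. Apoe did not oppose Mttp (0.36, and 0.03 within groups) or Apom (0.19 and 0.02), and gave -0.06 and -0.38 with Apob. Apoa4 with Mttp gave -0.58 over all libraries and -0.05 within groups. These libraries share groups, depth and preparation, and the values are descriptions.

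Several members also tracked a measure of how long and short transcripts were recovered. A length index was computed for each library from the log2 deviations of genes. It is the median of 1399 genes with at least 6000 exon bases minus that of 273 genes with at most 1500. Members were not left out: Apob (13934 exon bases) and Mttp (6206) are among the long genes. Apoa1 (1236), Apoa2 (537), Apoc3 (1014) and Apom (1013) are among the short ones. Within groups the index correlated at 0.84 with Apob, at -0.89 with Apoa2, at -0.88 with Apoc3 and at -0.85 with Apoa1 (n = 44). It correlated at -0.69 with Apoe, 0.57 with Mttp, 0.55 with Apom, -0.35 with Apoc2, -0.27 with Apoa4 and 0.05 with Apoa5. The sign did not follow the members' own length throughout: Apob has 13934 exon bases and Apoa2 has 537, but Apom, with 1013, went with Apob, while Apoc3, with 1014, went with Apoa2. Its group medians differed most in MlklKO, 0.48 on control, -0.34 on CD-LFD and 0.36 on CD-HFD. With the index as a covariate, chosen after seeing the data, the MlklKO CD-LFD against control changes were -0.023 for Apoa2 (adjusted p = 0.941), 0.10 for Apob (adjusted p = 0.772), -0.43 for Mttp (adjusted p = 0.271) and 0.75 for Apoa4 (adjusted p = 0.13). The CD-HFD against CD-LFD differences of Apoa2 and Apoc3 kept their calls in all 3 genotypes in that fit: -0.95 and -0.91 in WT, -0.73 and -0.61 in Ripk3KO, and -0.99 and -0.83 in MlklKO.

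**Figure D4:**
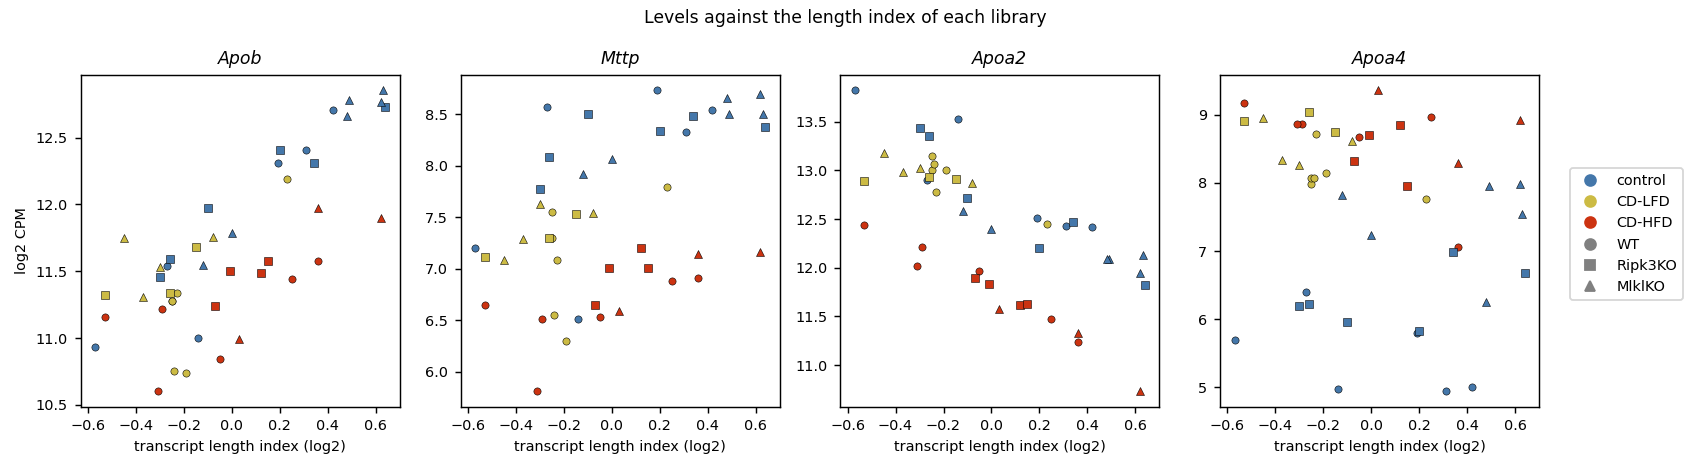
Log2 CPM of Apob, Mttp, Apoa2 and Apoa4 in each of the 44 libraries against the library's transcript length index (log2), coloured by diet with 1 symbol per genotype. Apob rises and Apoa2 falls with the index, with CD-HFD livers below the others in Apoa2 at a given index, and Apoa4 separates control from diet libraries of WT across its range.

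Genes that act with the members moved in both directions on CD-HFD in WT, where 47.7% of all genes were called. Of 20 tested partners of VLDL assembly and secretion, 1 rose and 11 fell (median log2 change -0.55). Cidec, a lipid droplet protein, rose from 8.17 to 49.6 CPM (log2 change 2.59, adjusted p = 6.02e-07), and Ces1d, a lipase that supplies triglyceride for VLDL, fell from 792 to 171 CPM (log2 change -2.22, adjusted p = 1.92e-05). Sar1b, the GTPase of the coat that carries large lipoproteins from the endoplasmic reticulum, fell from 169 to 68.4 CPM (log2 change -1.31, adjusted p = 1.37e-06), and Svip from 18.6 to 7.15 (log2 change -1.37). In Ripk3KO 1 rose and 11 fell, where 46.3% of all genes were called, and in MlklKO 1 rose and 9 fell, where 45.2% were. Cidec had an MlklKO log2 change of 0.57 (adjusted p = 0.269).

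Of 10 tested genes of phosphatidylcholine supply, 1 rose and 7 fell in WT (median -0.57). Chpt1, the last step from CDP-choline, fell from 191 to 78.8 CPM (log2 change -1.28), Pcyt1a, the rate-limiting step, from 73.4 to 32.3 (log2 change -1.19), and Pcyt2, of the ethanolamine branch, from 1141 to 529 (log2 change -1.11). Pcyt1b went from 0.131 to 2.44 CPM. Of 9 tested other apolipoproteins, 2 rose and 5 fell (median -0.55): Apoc1, an inhibitor of lipoprotein uptake, fell from 3759 to 1807 CPM (log2 change -1.06, adjusted p = 0.00252), Pon1, an HDL-bound esterase, from 716 to 384, and Apoh from 2073 to 1119, while Clu rose from 1462 to 2189 and Apobr, an apoB receptor of myeloid cells, from 1.07 to 6.48.

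Of 12 tested lipases, transfer and HDL lipidation genes, 2 rose and 8 fell in WT (median -0.95). Lpl, lipoprotein lipase, rose from 32.5 to 423 CPM (log2 change 3.70, adjusted p = 6.19e-15) and Abcg1, a sterol exporter, from 5.63 to 19.2, both genes that macrophages also express. Angptl8, a hepatic regulator of lipoprotein lipase activity, fell from 231 to 20.9 CPM (log2 change -3.46, adjusted p = 4.29e-08), and Pltp, which transfers phospholipid between particles, from 94.5 to 24.6. Of 12 receptors and their regulators, 2 rose and 6 fell (median -0.48): Cd36, a fatty acid and lipoprotein scavenger receptor, rose from 28.3 to 173 CPM and Stab1 from 72.4 to 99.6, while Sdc1, a remnant receptor, fell from 220 to 126.

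Of 25 transcription regulators, 1 rose and 14 fell in WT (median -0.65). Srebf1, the regulator of lipogenesis, fell from 584 to 128 CPM (log2 change -2.19, adjusted p = 8.55e-09), Mlxipl, its carbohydrate-responsive counterpart, from 793 to 293, and Ppara, the fatty acid receptor, from 92.7 to 43.7, while Cebpb rose from 149 to 212 (log2 change 0.51, adjusted p = 0.0235). In Ripk3KO 1 rose and 16 fell (46.3% of all genes called), and in MlklKO 2 rose and 6 fell (45.2%), with Srebf1 at a log2 change of -0.06 (adjusted p = 0.889). Whether these lists differed between genotypes was not tested.

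By likeness over the 44 libraries, measured as the Pearson correlation of log2 CPM among 8538 genes, Apoa2 was nearest to Ttr (0.97) and Proc (0.96), and Apoc3 to Proc (0.95) and Ttr (0.95), both secreted hepatocyte proteins. Mttp was nearest to Scp2 (0.97) and Lap3 (0.97), Apom to Plg (0.96) and Zdhhc9 (0.95), and Apob to Zdhhc5 (0.95) and Ipo8 (0.95). Apoa4 was nearest to Ly6d (0.88) and Ifi27l2b (0.87), Apoa1 to Ccs (0.90) and Sod1 (0.89), and Apoe to Stard10 (0.91) and Mpc2 (0.91). Apoa5 was nearest to Eif5a (0.85) and Ltbr (0.83), and Apoc2 to Ugt1a6a (0.78) and Phf11c (0.69). These neighbours carry the same differences in library preparation and diet as the members.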

How the data were processed

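Bulk RNA sequencing of 44 mouse livers was analysed from the raw read counts per Ensembl gene that the authors deposited; the table was not normalised. Libraries came from a strand-directional kit, per the labels' protocols. Per the submitters' processing notes, FastQC, STAR, HTSeq, edgeR and limma were used with GRCm39; roles, versions and the strand setting are not given in the sources used here. Of 35249 identifiers 34373 matched a symbol and 876 did not. Exon lengths and overlaps came from GENCODE M21 and promoter letters from RefSeq, on an older build than the counts.

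Genes were kept by filterByExpr (minimum count 10), which left 14862 genes with 99.8% of counts. edgeR 4.0.16 in R 4.3.3 was fitted to all libraries with 1 mean per group, TMM scaling and quasi-likelihood F tests, with Benjamini-Hochberg adjustment over all tested genes and a threshold of 0.05. SE was taken from the log2 change and F (change over the root of F), and log2 CPM used a prior count of 2. No pair of libraries in a group was a duplicate (93 pairs, with chi-square over its degrees of freedom between 6.95 and 116). The test script was tested on simulated data. Alternatives were DESeq2 1.42.0, RLE and library-size scaling, no filter, the replicate number as a block, a clock-phase and a length-index covariate, the compared groups alone, and leaving out each library.

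The members and lists were chosen with earlier results of these data known. Named genes are the members, from each other list up to 3 genes called higher and 3 lower in WT CD-HFD against control by size of change, and the 2 genes most like each member. Some genes that this rule names are not reported here.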

Additional observations from a re-analysis of the deposited data

Results flagged for a closer look

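Groups of 4 to 6 livers were looked at for a library standing apart from the rest of its group by the gap to its nearest neighbour; of 70 such groups 4 held one, and chance gives about 1 in 20. Apoa4 in WT CD-LFD was 422 CPM in replicate 2 beside 217 to 283 in the other 5. Apob in WT CD-LFD was 4682 CPM in replicate 3, the library of 88204703 counts, beside 1705 to 2584 in the other 5. Apoa1 in Ripk3KO CD-HFD was 12246 CPM in replicate 2 beside 9939 to 10325, and Apom in the same group was 68.6 CPM in replicate 1 beside 104 to 109.

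The response of Apoa4 to diet differed between MlklKO and WT in the test of the difference itself, by -1.61 on the log2 scale for CD-LFD (adjusted p = 0.0134, edgeR) and by -1.82 for CD-HFD (adjusted p = 0.016, edgeR), with the diet groups overlapping. The CD-LFD difference was called in each alternative; the CD-HFD one was lost with the clock covariate (-1.12, adjusted p = 0.12), in the compared groups alone (-1.88, adjusted p = 0.0667) and without MlklKO CD-HFD replicate 1 or 4 (adjusted p = 0.0585 and 0.0544).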

How the results depend on the processing

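Of 190 results, each a member in a comparison, 43 were called, and 15 of these were called in every alternative run: Apoa4 on both diets in WT and Ripk3KO, on CD-HFD in MlklKO, between MlklKO and WT controls and in the MlklKO CD-LFD interaction; Mttp on CD-HFD in each genotype; Apoa2 and Apoc3 on CD-HFD against control in WT and against CD-LFD in MlklKO; and Apoa5 between MlklKO and WT controls. Among values called as reported or under an alternative, 4 turned sign, all in MlklKO with the length index as a covariate: Apoa1 -0.62, Apoa2 -0.023 and Apob 0.10 for CD-LFD against control, and Apob -0.86 for CD-HFD against CD-LFD. A further 298 of 3074 alternative values, called in neither case, turned sign.

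Numbers of members called moved by over 1.5 times as follows; the cause was not tested. Library-size scaling gave 4 for WT CD-HFD and 2 for WT CD-LFD against control, 2 and 1 for the same in Ripk3KO, 2 and 7 in MlklKO, and 1 for Ripk3KO CD-HFD against CD-LFD. RLE scaling gave 1 for Ripk3KO CD-HFD against CD-LFD, and no filter 4 for Ripk3KO CD-HFD against control. The clock covariate gave 2 for WT CD-LFD against control, 0 for WT CD-HFD against CD-LFD, 2 for MlklKO against WT controls and 0 for the MlklKO CD-HFD interaction. The length index gave 4 for WT CD-HFD against CD-LFD, 8 and 1 for MlklKO CD-HFD and CD-LFD against control, and 2 for MlklKO against WT controls. The compared groups alone gave 5 and 1 for WT CD-HFD and CD-LFD against control, 7 for MlklKO CD-LFD against control, 5 for MlklKO CD-HFD against CD-LFD, and 0 for the MlklKO CD-HFD interaction. Without WT controls 5 and 6 together, MlklKO against WT controls gave 2, and DESeq2 gave 1 for Ripk3KO against WT controls.

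The replicate number as a block gave 7 (43.0% of all genes called) for MlklKO CD-LFD against control and 1 (4.43%) for Ripk3KO against WT controls. Same-numbered libraries of different groups deviated together no more than others (median correlation -0.011 over 146 pairs, 0 over 707 other pairs). Single same-numbered pairs ranged from -0.349 to 0.545, so a shared origin of some is not excluded, and the labels state no pairing. Without each library in turn, counts of called members were 7 to 8, 3 to 5 and 2 to 4 for WT CD-HFD against control, CD-LFD against control and CD-HFD against CD-LFD, 5 to 7, 1 to 2 and 0 to 1 for Ripk3KO, and 2 to 6, 3 to 5 and 2 to 4 for MlklKO. They were 0 to 1 and 2 to 4 for Ripk3KO and MlklKO against WT controls, 1 to 2 and 0 to 1 for the MlklKO CD-LFD and CD-HFD interactions, and 0 in the other comparisons. Apoc2 has the fewest counts, a median of 42 per library, with its counting uncertain as the report says.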
